A study of Mus musculus with 24 samples.

Results

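Long-chain and short-chain β2→1-fructan were compared in the terminal ileum of germ-free mice, by the expression of every gene that a probe set of its own represents on the array. The comparison rests on 8 of the 24 mice of the series: 4 germ-free mice that received long-chain β2→1-fructan and 4 that received short-chain β2→1-fructan. The mice were chosen by their sample labels. All were male C57BL/6OlaHsd mice of 8 weeks from a germ-free breeding colony, kept on a purified diet with 10% fat (D12450B). Both fructans were given by oral gavage at 10 mg once daily for 5 days, and 4 germ-free mice given water in the same way serve as baseline. The 2 fructans were not sterilized in the same way. Long-chain β2→1-fructan was irradiated with 25 kGy, after which chains of up to 30 units were still present although the longest ones were partly degraded, whereas short-chain β2→1-fructan was passed through a 0.2 micron filter. Chain length and the mode of sterilization therefore cannot be told apart here. Whole pieces of ileum were used, so that a change in the number of cells of a type and a change in their RNA content cannot be told apart either.

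β2→1-fructans are fructose chains that mammalian enzymes of the small intestine do not digest. In conventional animals they are fermented by bacteria further down, whereas in germ-free animals that route is missing. The ileal mucosa they pass holds absorptive enterocytes, which take up sugars, fat, vitamins and bile acids, and lymphoid follicles, in which naive B cells lie beneath a specialized epithelium.

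The probe sets with 1 gene symbol represent 18820 genes. Values are log2 expression, 1 array per mouse, so that a difference of 1 is a doubling. The libraries carried most markers of ileum. Fabp6, the ileal bile acid binding protein, lay at 12.4 to 12.6 in the 8 mice and Slc10a2, the ileal bile acid transporter, at 10.9 to 11.2. Muc2 of goblet cells (12.5 to 12.7) and Lyz1 of Paneth cells (12.7 to 12.9) were equally even, whereas Fgf15, the ileal hormone that bile acids induce, varied from 3.0 to 6.29. Gkn1, a stomach gene, lay at 2.91 to 3.63, and the pancreatic Prss2 at 3.05 to 3.52. Car1, a carbonic anhydrase of the large bowel, varied from 4.60 to 8.79, with its highest values in long-chain mice 2 and 3. Car4, also chosen as a large bowel marker that should be low, was high in all 8 mice (9.44 to 9.99). The spread of gene values on an array (SD) was 2.202 to 2.265 in long-chain mice, 2.27 to 2.295 in short-chain mice and 2.261 to 2.277 in water mice. The mean correlation of an array with the other arrays of its group, across genes, was r = 0.991 to 0.993 for the 4 long-chain arrays. For the 4 short-chain arrays it was r = 0.9946 to 0.995, genes not being independent replicates.

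A gene was called where the unadjusted p of the moderated test in limma was below 0.01 and the fold change above 1.3. By this rule 265 of the 18820 genes (1.41%) differed between the fructans. Of these, 139 were higher in long-chain than in short-chain mice (0.739%) and 126 were lower (0.67%). At an unadjusted p under 0.01 alone there were 667 genes (3.54%), against 188.2 that this threshold gives by its definition, and at p under 0.05 there were 2392 (12.7%). No gene passed an adjusted p of 0.05 (Benjamini-Hochberg in limma, smallest 0.123), nor with a common prior variance or the intensity-based moderated test (IBMT), where 2305 and 2398 genes had an unadjusted p under 0.05. The differences given here are therefore not controlled for a false discovery rate. A fit in limma on the 12 germ-free arrays gave 478 genes at an unadjusted p under 0.01 and 2016 under 0.05. With the 8 arrays of the 2 groups these counts were 494 and 2048. With 1 mouse left out they ran from 368 and 1511 (short-chain mouse 3) to 956 and 2831 (long-chain mouse 1). Without long-chain mouse 1 the rule called 455 genes (243 higher, 212 lower; 9 at an adjusted p under 0.05), and the lower genes numbered 83 without long-chain mouse 2 and 75 without short-chain mouse 3. Every long-chain mouse lay above every short-chain mouse in 406 genes (2.16%) and below in 615 (3.27%). The median standard error of a difference was 0.111, and the median 95% interval reached 0.228 to either side.

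The called genes were unevenly spread over expression levels. Of the 139 higher genes, 119 had a mean level below 5 (85.6%), compared with 44 of the 126 lower genes (34.9%) and 8175 of all 18820 genes (43.4%). The median difference of all genes moved with level in the same way, at 0.07 for genes below 4 and between -0.07 and -0.05 in each range from 5 upwards. After cyclic loess normalization of the gene values, the medians were 0.00 below a level of 5 and -0.01 above it. The call then held for 221 genes, of which 99 were higher and 122 lower, and 178 of them were among the original 265. The part of this shift in the calls of single dim genes was not tested.

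**Figure D1:**
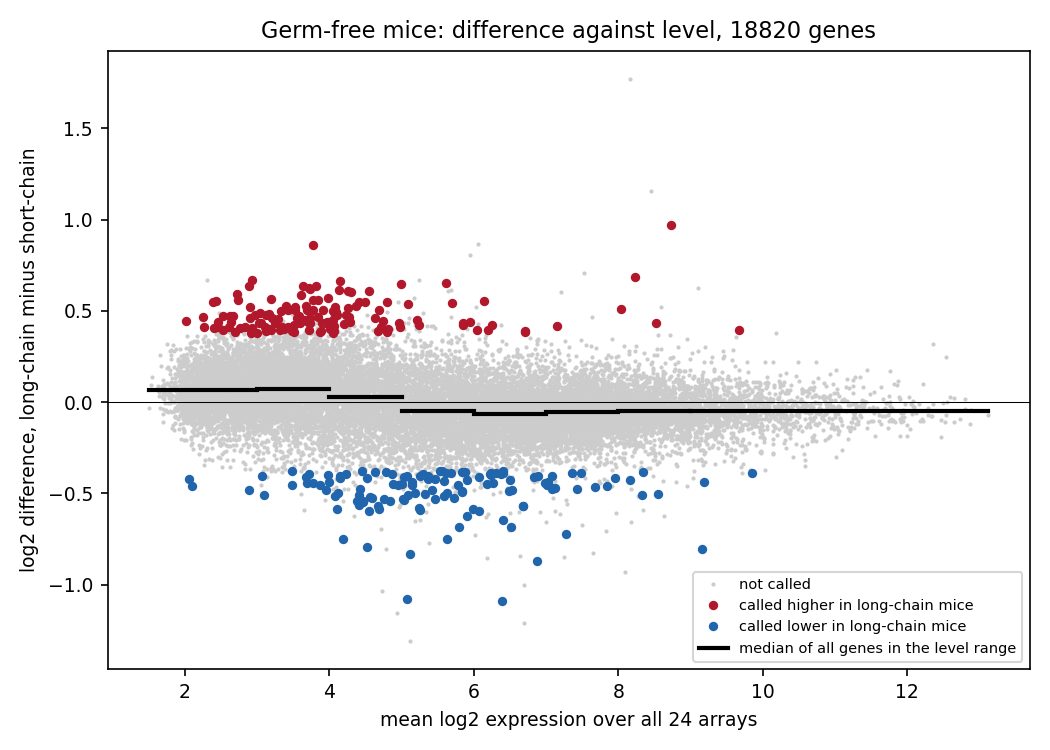
Log2 difference between long-chain and short-chain mice against the mean log2 expression over all 24 arrays, 1 point per gene. Red points are the 139 genes called higher and blue points the 126 called lower in long-chain mice, and black lines are the medians of all genes in each range of level. Higher calls gather at low levels and lower calls at middle levels.

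Part of the genes of mature B cells were higher in long-chain mice, mainly through 2 of the 4 mice. Of 26 measured genes of this kind, 6 rose (23.1%, against 0.739% of all genes), none fell, and 22 had a positive difference, with a median of 0.28 against -0.01 over all genes. Ms4a1, which encodes the B cell surface protein CD20 (chr19:11249679-11266149, GRCm38), was 3.91, 3.40, 4.93 and 5.00 in the long-chain mice, against 3.37, 3.61, 3.58 and 3.25 in the short-chain mice and 3.81, 3.56, 3.28 and 3.26 in the water mice. Long-chain mice 3 and 4 stood far above all others, mouse 1 lay just above the short-chain mice, and mouse 2 lay within their range. Its difference was 0.86 ± 0.24 (SE; adjusted p = 0.191 in limma), the second highest of all called genes. Cr2, complement receptor 2 of follicular B cells (chr1:195136811-195176880), had the same shape, with 2.53, 2.71, 3.58 and 3.68 in long-chain mice, against 2.68, 2.50, 2.49 and 2.59 in short-chain mice.

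Pax5, the transcription factor that fixes B cell identity, was 3.21, 3.43, 3.94 and 3.82 in long-chain mice, against 3.06, 2.89, 3.17 and 3.02 in short-chain mice. All long-chain values were above all short-chain values, with mouse 1 close to the highest short-chain mouse. Fcmr, the Fc receptor for IgM, also separated the groups, with 4.31, 4.50, 5.25 and 4.54 in long-chain mice and 3.98 to 4.10 in short-chain mice. Tnfrsf13c, the receptor for the B cell survival factor BAFF, was 5.37, 5.25, 6.49 and 6.19 in long-chain mice and 4.86 to 5.58 in short-chain mice, and these ranges overlapped. Spib, an Ets factor of B cells and of M cells, was 4.71, 5.02, 5.20 and 5.17 in long-chain mice, each above the 4.53 to 4.66 of the short-chain mice. The differences of these genes were 0.56 for Pax5, 0.61 for Fcmr, 0.65 for Tnfrsf13c, 0.41 for Spib and 0.56 for Cr2, with adjusted p between 0.123 and 0.234. Over the list, 5 of 26 genes had every long-chain mouse above every short-chain mouse, a pattern found in 406 genes overall (2.16%).

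**Figure D2:**
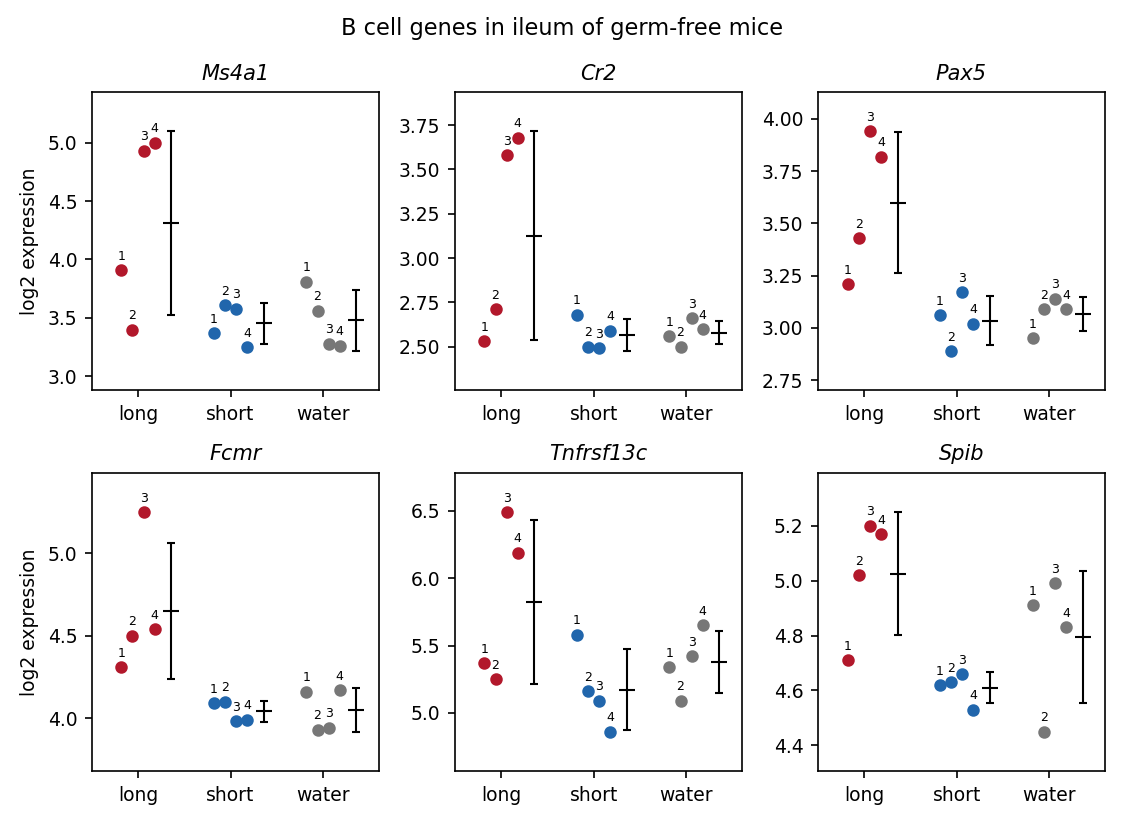
Log2 expression of the 6 called B cell genes in each germ-free mouse, numbered by replicate, with the mean ± SD of 4 mice to the right of each group (long-chain, short-chain, water). Mice 3 and 4 had the highest values among the long-chain mice for all 6 genes. Pax5, Fcmr and Spib also separated long-chain from short-chain mice.

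At an unadjusted p under 0.05 in limma, 11 of the 26 genes were higher and 0 lower, where 5.06% of all genes were higher. The uncalled members with the smallest p are described next. They come from the same mice, so their direction is not separate support for the calls. Cd22, an inhibitory coreceptor of B cells, averaged 5.06 ± 0.12 in long-chain mice and 4.69 ± 0.25 in short-chain mice (SD, n = 4 each). Pou2af1, a coactivator of immunoglobulin genes, averaged 4.69 ± 0.14 and Cd79b, a chain of the B cell receptor, 4.81 ± 0.20 in long-chain mice, against 4.29 ± 0.12 and 4.44 ± 0.14 in short-chain mice. The mean of the 26 genes, each centred on its average over germ-free mice, was -0.03, -0.13, 0.43 and 0.43 in long-chain mice, -0.07, -0.14, 0.02 and -0.22 in short-chain mice and -0.16 to -0.02 in water mice. The B cell list is dim, with a median level of 4.52. Its median was 0.22 after cyclic loess, where 7 genes were called, whereas the 6 members above the median level of all genes had a median of -0.05, with 3 positive and 1 called. Without long-chain mouse 3 or without long-chain mouse 4, 2 genes of the list were called. Without long-chain mice 3 and 4 together the median was 0.07 and no gene was called; leaving out either of them alone ended the calls of Ms4a1 (0.66 without mouse 3, 0.63 without mouse 4), Cr2 (0.41, 0.38), Tnfrsf13c (0.43, 0.53) and Spib (0.35, 0.36), and leaving out short-chain mouse 4 ended those of Tnfrsf13c (0.55) and Spib (0.38).

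Other lymphoid and follicle genes gave no such picture. No gene was called among 12 genes of germinal centres, 13 of plasma cells and IgA transport, or 27 of T cells and intraepithelial lymphocytes, and the medians of these lists were 0.05, -0.04 and -0.03. The lowest p in the plasma cell list belonged to Irf4, a factor of plasma cell differentiation, at 3.89, 2.87, 3.61 and 4.01 in long-chain mice against 4.08, 3.90, 4.49 and 4.41 in short-chain mice. Among 14 genes of follicle-associated epithelium and M cells, Spib alone was called (7.14%, against 0.739% of all genes called higher). Csf1r, the growth factor receptor of macrophages, averaged 6.65 ± 0.06 in long-chain mice and 6.92 ± 0.12 in short-chain mice (SD, n = 4 each), below the fold limit.

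The highest called gene was Snora61, a small nucleolar RNA of the class that guides pseudouridylation (chr4:132310307-132310368), at 9.32, 10.30, 8.94 and 9.06 in long-chain mice and 8.23 to 8.59 in short-chain mice. The groups did not overlap, and the difference was 0.97 ± 0.26 (SE; adjusted p = 0.185 in limma). Water mouse 2 reached 9.79, within the long-chain range. Of 60 small nucleolar RNAs, 1 other was called, Snora2b, which fell. This is 1.67% in each direction, where 0.739% of all genes were called higher and 0.67% lower.

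Among epithelial genes, Gprc5a, an orphan receptor induced by retinoic acid (chr6:135065662-135084709), was 8.16, 8.19, 9.02 and 8.19 in long-chain mice and 7.48, 7.72, 7.42 and 8.22 in short-chain mice. Short-chain mouse 4 lay within the long-chain range, and the water mice (7.69 to 8.73) overlapped both groups. Cldn4, a claudin of tight junctions, was the one called gene of 19 in its list (5.26%, against 0.739% of all genes called higher). It was 8.31 to 8.69 in long-chain mice and 7.75 to 8.37 in short-chain mice, while 3 of the 4 water mice were higher than every long-chain mouse. Neither call held without long-chain mouse 3 (0.47 for Gprc5a, 0.37 for Cldn4) or short-chain mouse 1 (0.61 and 0.32), that of Gprc5a was also lost without short-chain mouse 2 (0.69) or 3 (0.59), and that of Cldn4 without long-chain mouse 2 (0.41) or short-chain mouse 4 (0.41).

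Cxcl1, a chemokine that attracts neutrophils, was 4.83, 4.81, 5.39 and 4.77 in long-chain mice and 4.69, 4.42, 4.53 and 4.52 in short-chain mice. The groups did not overlap, mouse 3 stood apart, and the difference of 0.41 ± 0.15 (SE; adjusted p = 0.274 in limma) was 0.27 without it. Without short-chain mouse 2, 3 or 4 it was 0.37 to 0.41 and was no longer called. It was the one called member of 31 chemokines and chemokine receptors (3.23%) and of 18 NF-κB response genes (5.56%), against 0.739% of all genes called higher. The medians of these lists were -0.03 and 0.02. Cxcl1 is a textbook target of NF-κB, and its start region is shown for that reason, from RefSeq (GRCm38.p6, chr5:90890995-90891294, plus strand, from 250 bases before the gene start to 50 after), with matches to GGG, any 2 bases and TTTCC on either strand in capitals.
Cxcl1: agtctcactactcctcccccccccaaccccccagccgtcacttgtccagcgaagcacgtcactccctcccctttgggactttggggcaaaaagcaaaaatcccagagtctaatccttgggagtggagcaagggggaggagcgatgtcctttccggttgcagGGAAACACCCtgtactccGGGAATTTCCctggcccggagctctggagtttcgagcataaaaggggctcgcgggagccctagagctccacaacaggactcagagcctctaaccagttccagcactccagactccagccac
The matches began 89 and 71 bases before the gene start, the first on the minus strand. This motif was present in 535 of 32851 promoter windows of the same length (1.63%) and in 5 of the 179 called genes that have such a window. A match describes the letters only.

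Further called genes with higher values are named here after their values were seen. Creb3l1, an endoplasmic reticulum transcription factor, was 8.06 to 8.59 in long-chain mice and 7.68 to 8.00 in short-chain mice. Tnfrsf12a, the receptor for TWEAK, was 5.95 to 6.30 in long-chain mice and 5.38 to 5.91 in short-chain mice. Tmsb10, an actin-binding thymosin, was 9.57 to 10.30 in long-chain mice and 9.30 to 9.58 in short-chain mice. The groups were separate for Creb3l1 and Tnfrsf12a and met at the edge for Tmsb10.

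Most of the other genes with large positive differences had low values. Gsc2, a homeobox gene, was 4.82, 5.09, 4.82 and 4.84 in long-chain mice and 4.03 to 4.65 in short-chain mice, and it kept its call in all 18 refits that tested it, each judged by the same p and fold. So did BB014433 (difference 0.67 ± 0.12, SE), at 2.99, 3.43, 3.48 and 3.43 in long-chain mice and 2.53 to 2.83 in short-chain mice. Fam71a (0.66), Slc22a20, an organic anion transporter (0.63), H2-M10.4, a nonclassical class I histocompatibility gene (0.63), and Gpr6, an orphan receptor (0.62), lay at mean levels below 5. Slc22a20 was not called without long-chain mouse 2 (0.45), H2-M10.4 not without long-chain mouse 4 (0.49), and Gpr6 not without long-chain mouse 2 (0.49) or 4 (0.58) or short-chain mouse 2 (0.59) or 3 (0.56). For Serf1 (0.65) and Henmt1, a methyltransferase of small germline RNAs (0.63), the mean over all their probe sets differed by 0.25 and 0.28 and was not called. Higher calls outnumbered lower ones among dim genes in general, with 57 higher and 12 lower among the 2906 genes at levels 3 to 4. Of a group of 78 homeobox and developmental transcription factors of low level (median 3.99), 8 were called higher (10.3%) and none lower. Of all genes, 0.739% were called higher and 0.67% lower. The group does not hold every gene of this kind, since Gsc2 is not part of it. Its largest difference (0.56) is that of Pax5, which is also counted among the B cell genes. Whether this share holds after cyclic loess or without single mice was not tested. Of 1157 olfactory and vomeronasal receptors (median level 2.42), 8 were higher (0.691%) and 1 lower, near the 0.739% of all genes called higher.

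Among 307 microRNA genes, 7 were called higher (2.28%) and 1 lower (0.326%), where 0.739% of all genes were called higher and 0.67% lower. Only Mirlet7b and Mir335 had a mean level above 5. Mirlet7b was 6.13, 6.79, 6.69 and 6.38 in long-chain mice and 6.15, 5.92, 5.72 and 6.00 in short-chain mice, where mouse 1 of each group met. Mir16-2, the only one to fall, was 3.03, 2.92, 2.84 and 3.10 in long-chain mice and 3.44, 3.25, 3.70 and 3.13 in short-chain mice, with no overlap. The mature sequences of these 2 genes are given from RefSeq (GRCm38.p6), since they are the most abundant microRNA gene that rose and the one that fell, with the seed (bases 2 to 8) in capitals.
let-7b-5p: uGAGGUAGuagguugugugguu
let-7b-3p: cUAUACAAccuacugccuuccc
miR-16-5p: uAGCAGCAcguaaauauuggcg
miR-16-2-3p: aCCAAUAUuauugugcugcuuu
No seed is shared between them, and the probe sets do not separate the arms or the precursor from the mature form.

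Several genes of absorptive enterocytes were among those lower in long-chain mice. Slc5a4b (chr10:76058618-76111018), a member of the sodium-glucose cotransporter family, had the lowest difference of all called genes. It was 7.86, 6.42, 6.54 and 7.30 in long-chain mice, against 7.79, 8.53, 8.70 and 7.45 in short-chain mice and 8.99, 8.24, 6.99 and 8.58 in water mice. Long-chain mouse 1 overlapped the short-chain mice. The difference was -1.09 ± 0.34 (SE; adjusted p = 0.234 in limma), and it was -0.95 to -0.89 and no longer called without long-chain mouse 2 or 3 or short-chain mouse 2 or 3. Fbp1, a fructose bisphosphatase of gluconeogenesis (chr13:62864753-62888298), separated the groups clearly, with 5.44, 5.27, 5.49 and 5.60 in long-chain mice, against 5.96, 5.89, 6.04 and 6.02 in short-chain mice and 6.10, 5.99, 5.98 and 5.58 in water mice. Its difference was -0.52 ± 0.16 (SE; adjusted p = 0.234), and -0.46 and not called without long-chain mouse 2.

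These were the 2 called genes of 24 in the list of sugar transport and fructose metabolism (8.33%, against 0.67% of all genes called lower). In this list 9 genes, all lower, had an unadjusted p under 0.05, where 7.65% of all genes did so in that direction. The 9 were 4 without long-chain mouse 2 or short-chain mouse 3 and 5 without long-chain mouse 3 or short-chain mouse 2. Slc2a5, the fructose transporter GLUT5, was 6.37, 5.99, 5.69 and 6.40 in long-chain mice and 6.53, 6.85, 6.77 and 6.27 in short-chain mice. Khk, the ketohexokinase that phosphorylates fructose, averaged 8.79 ± 0.29 in long-chain mice and 9.07 ± 0.10 in short-chain mice (SD, n = 4 each). G6pc, glucose-6-phosphatase, averaged 6.65 ± 0.52 in long-chain mice and 7.50 ± 0.58 in short-chain mice. The main glucose transporter Slc5a1 lay at 10.58 ± 0.05 in long-chain mice and 10.71 ± 0.06 in short-chain mice. The list median was -0.21, and -0.17 after cyclic loess. Without long-chain mouse 2 the median was also -0.17 and none of the genes was called.

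Genes of fatty acid oxidation that are under control of the nuclear receptor PPARα had small and mostly negative differences. Of 19 genes, 1 was called, 18 had a negative difference and 13 were lower at an unadjusted p under 0.05, with a median of -0.33. Of all genes, 0.67% were called lower and 7.65% were lower at that p. The 13 were 4 without short-chain mouse 2 and 6 without short-chain mouse 3. The called gene, the fatty acid hydroxylase Cyp4a31, lay near the bottom of the scale (1.75 to 2.21 in long-chain mice, 2.13 to 2.76 in short-chain mice). Acadm, the dehydrogenase of medium-chain fatty acids, had the smallest p of the list, at 9.66 to 9.96 in long-chain mice, all below the short-chain mice, of which the lowest had 9.98. Its difference of -0.26 ± 0.07 (SE; adjusted p = 0.189 in limma) was below the fold limit. Hadhb, of the mitochondrial trifunctional protein, averaged 9.19 ± 0.24 in long-chain mice and 9.51 ± 0.18 in short-chain mice, and Acaa2, a mitochondrial thiolase, 9.27 ± 0.18 in long-chain mice and 9.59 ± 0.08 in short-chain mice. Ppara itself was 7.62 ± 0.16 in long-chain mice and 7.93 ± 0.26 in short-chain mice (SD, n = 4 each). The list median was -0.28 after cyclic loess. Without long-chain mouse 2 it was -0.22, 4 genes had an unadjusted p under 0.05 and none was called; Cyp4a31 also lost its call without short-chain mouse 3 (-0.34).

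Outside the list, 3 enzymes of fatty acid breakdown were picked from the 126 lower genes after their values were seen, and how many such enzymes were measured was not counted. Acad11, an acyl-CoA dehydrogenase, was 8.33, 7.78, 8.20 and 8.10 in long-chain mice and 8.41, 8.76, 8.62 and 8.32 in short-chain mice. Hsd17b4, of peroxisomal oxidation, was 9.57 to 10.20 in long-chain mice and 10.10 to 10.60 in short-chain mice. Acot4, a peroxisomal thioesterase, was 7.12 to 7.96 in long-chain mice and 7.81 to 8.43 in short-chain mice. Each of these fell by 0.39 to 0.47, and long-chain mouse 2 had the lowest value of all 3. Vnn1, a pantetheinase of the enterocyte surface that PPARα controls in liver, was among the 15 lowest genes, at 9.35, 7.83, 8.54 and 8.74 in long-chain mice, against 9.01, 9.72, 9.73 and 9.22 in short-chain mice. Mouse 1 overlapped, and without mouse 2 the difference was -0.54 instead of -0.80. It was also no longer called without long-chain mouse 3 (-0.78) or short-chain mouse 2 (-0.71) or 3 (-0.70).

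All 26 genes of fat absorption and chylomicron assembly had a negative difference, and 12 had an unadjusted p under 0.05 (7.65% of all genes were lower at this p). Only 1 was called (3.85%, against 0.67% of all genes called lower). Those 12 were 4 without long-chain mouse 2, 5 without short-chain mouse 2 and 7 without short-chain mouse 3. Dgat2, which makes triglyceride from diglyceride (chr7:99153663-99182713), was 9.38, 8.94, 9.67 and 8.67 in long-chain mice and 9.51, 9.70, 9.77 and 9.42 in short-chain mice. The ranges overlapped through long-chain mouse 3. Abcg8, of the sterol efflux transporter, was 9.07 to 9.32 in long-chain mice and 9.38 to 9.62 in short-chain mice, without overlap. Mogat2 and Dgat1, which act beside Dgat2, averaged 8.51 ± 0.15 and 8.91 ± 0.19 in long-chain mice, against 8.78 ± 0.12 and 9.16 ± 0.04 in short-chain mice (SD, n = 4 each). The carrier genes Fabp2 and Apob, among the brightest on the array, differed by -0.19 and -0.19. The list median was -0.21, and -0.14 without long-chain mouse 2; Dgat2 was not called without long-chain mouse 2 (-0.36) or 4 (-0.27) or without short-chain mouse 2 (-0.41) or 3 (-0.38).

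The same direction held for fatty acid synthesis, where all 15 genes had a negative difference (median -0.27) and none was called. The median was -0.095 without long-chain mouse 4, and -0.45 without long-chain mouse 3, where 3 genes were called and 10 had an unadjusted p under 0.05. The spread between long-chain mice was wide in this list, at 0.15, -0.23, 0.35 and -0.71 on the centred scale, against 0.23, 0.19, 0.35 and -0.02 in short-chain mice. Markers of adipocytes moved with it, at 0.30, -0.31, 0.48 and -0.61 in long-chain mice, 0.27, 0.18, 0.38 and 0.13 in short-chain mice and -0.86, 0.23, 0.44 and -0.62 in water mice. None of the 17 adipocyte genes was called. Their summed level (log2) ranged from 11.6 to 13 in long-chain mice, 12.5 to 12.8 in short-chain mice and 11.2 to 13 in water mice, and Adipoq averaged 7.37 ± 0.85 in long-chain mice and 7.98 ± 0.09 in short-chain mice (SD, n = 4 each). The part of attached fat in the differences of lipid genes was not tested. The adipocyte list shares 1 gene, Cidec, with the list of fat absorption and none with those of oxidation and synthesis. Of 7 mesothelial genes none was called, with a median of -0.34.

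Markers of the proximal small intestine moved with the absorptive genes too, and 12 of the 20 are members of those lists (5 of fat absorption, 4 of sugar transport, 2 of fatty acid synthesis and 1 of vitamin A). Their 20 genes averaged 0.07, -0.52, -0.23 and -0.25 in long-chain mice, -0.07, 0.30, 0.15 and -0.05 in short-chain mice and 0.63, 0.04, -0.13 and 0.05 in water mice. Fabp1, a fatty acid binding protein of proximal enterocytes, averaged 7.01 ± 1.46 in long-chain mice and 8.22 ± 1.43 in short-chain mice (SD, n = 4 each). The 16 ileal markers had a median difference of -0.01. Whether the place of sampling had a part in the differences was not tested.

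**Figure D3:**
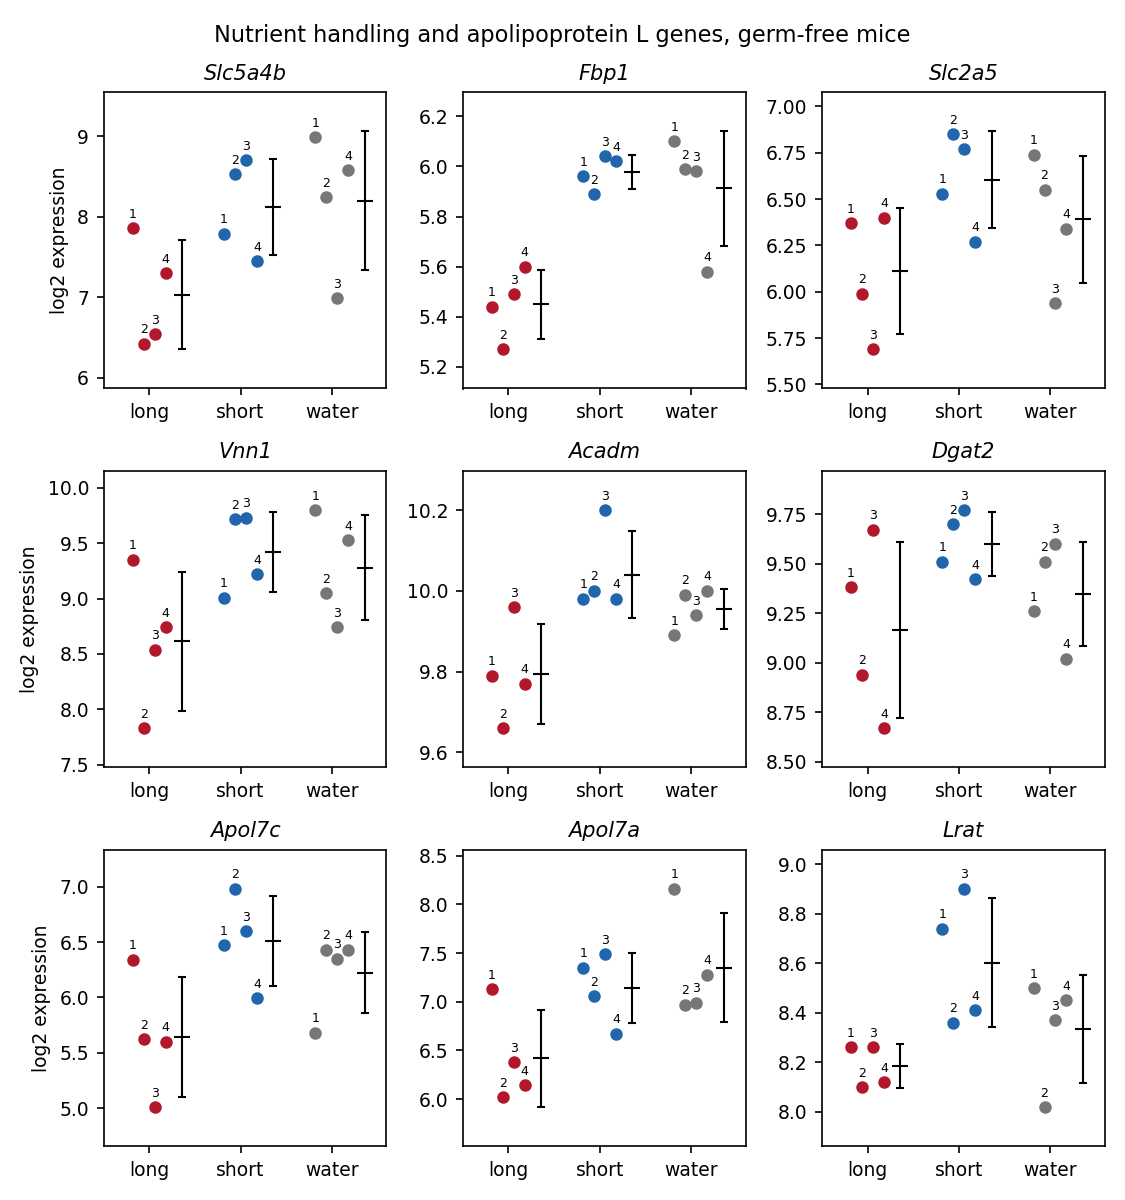
Log2 expression of 9 genes of sugar, fat and retinoid handling and of the apolipoprotein L family in each germ-free mouse, numbered by replicate, with the mean ± SD of 4 mice to the right of each group (long-chain, short-chain, water). Fbp1, Acadm and Lrat were lower in every long-chain mouse than in every short-chain mouse, whereas long-chain mouse 1 reached the short-chain range for Slc5a4b and Vnn1.

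Of 23 genes of vitamin A metabolism 4 fell and 1 rose, where 0.67% of all genes were called lower and 0.739% higher. The intestine converts dietary vitamin A to retinyl esters for export and, in part, to retinoic acid, a signal for immune cells. Lrat, which esterifies retinol (chr3:82892582-82903974), was 8.26, 8.10, 8.26 and 8.12 in long-chain mice and 8.74, 8.36, 8.90 and 8.41 in short-chain mice. Rarb, a retinoic acid receptor and itself induced by retinoic acid (chr14:16430839-17082331), was 4.44, 4.39, 4.38 and 4.24 in long-chain mice and 4.60, 4.63, 5.00 and 4.76 in short-chain mice. Both genes were lower in every long-chain mouse.

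Aldh1a2, a retinaldehyde dehydrogenase that makes retinoic acid, was 5.46 to 5.83 in long-chain mice and 5.84 to 6.22 in short-chain mice. Rdh16, a retinol dehydrogenase, was 5.46, 4.80, 5.15 and 5.12 in long-chain mice and 5.71, 5.52, 6.26 and 5.40 in short-chain mice. Stra6, a receptor for the retinol carrier of blood, was higher, at 3.98 to 4.53 in long-chain mice and 3.59 to 4.03 in short-chain mice. The list median was -0.22 (10 genes lower at an unadjusted p under 0.05, but 6 without long-chain mouse 2 and 5 without short-chain mouse 3), and -0.18 after cyclic loess, where 1 gene was called higher and 1 lower. Aldh1a2 (-0.34), Lrat (-0.36) and Rdh16 (-0.57) then lost their calls. Without long-chain mouse 2 Rarb was the only gene of the list still called. Without short-chain mouse 3 all 4 lower genes lost their calls (-0.30 for Rarb, -0.34 for Aldh1a2, -0.32 for Lrat, -0.41 for Rdh16). Rarb was also lost without long-chain mouse 4 (-0.34), Aldh1a2 without short-chain mouse 2 (-0.35), and Stra6 without long-chain mouse 2 (0.33) or 3 (0.37) or short-chain mouse 4 (0.34). Lrat, with p just under 0.01, kept its call only without short-chain mouse 2 or 4 (other values -0.44 to -0.32), and Rdh16 only without long-chain mouse 1 or short-chain mouse 2 or 4 (other values -0.60 to -0.41).

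Of the apolipoprotein L family, a group of intracellular lipid-binding proteins related to the trypanosome-killing factor of human serum, 5 members were measured and 2 fell. That is 40% of a very small group, where 0.67% of all genes were called lower. Apol7c (chr15:77524852-77533335) was 6.34, 5.62, 5.01 and 5.60 in long-chain mice, against 6.47, 6.98, 6.60 and 5.99 in short-chain mice and 5.68, 6.43, 6.35 and 6.43 in water mice. Only long-chain mouse 1 reached the short-chain range, and the difference was -0.87 ± 0.21 (SE; adjusted p = 0.150 in limma). Apol7a (chr15:77388217-77399110) was 7.13, 6.02, 6.38 and 6.14 in long-chain mice, against 7.35, 7.06, 7.49 and 6.67 in short-chain mice and 8.16, 6.97, 6.99 and 7.28 in water mice, again with mouse 1 in the overlap. Apol10a and Apol6 differed by -0.32 and -0.30 and Apol8 by 0.35, and none of these passed the fold limit at p under 0.01. Apol7c kept its call without any single mouse, whereas Apol7a lost it without long-chain mouse 2 (-0.59) or 4 (-0.63) or short-chain mouse 1 (-0.66) or 3 (-0.61).

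The start regions of both fallen members are shown because both genes belong to the same family cluster on chromosome 15. They are RefSeq windows (GRCm38.p6, minus strand) at chr15:77533266-77533565 for Apol7c and chr15:77399061-77399360 for Apol7a, from 250 bases before the gene start to 50 after. Capitals mark a match to 2 copies of AGGTCA with any 1 base between them, the direct repeat (DR1) that PPARα with its partner RXR, and also HNF4, can bind.
Apol7c: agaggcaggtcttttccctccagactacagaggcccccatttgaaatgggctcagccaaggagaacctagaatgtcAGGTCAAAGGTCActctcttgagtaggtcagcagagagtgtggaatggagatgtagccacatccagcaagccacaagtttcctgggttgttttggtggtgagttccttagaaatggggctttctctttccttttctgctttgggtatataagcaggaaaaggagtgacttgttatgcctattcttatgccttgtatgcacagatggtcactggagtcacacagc
Apol7a: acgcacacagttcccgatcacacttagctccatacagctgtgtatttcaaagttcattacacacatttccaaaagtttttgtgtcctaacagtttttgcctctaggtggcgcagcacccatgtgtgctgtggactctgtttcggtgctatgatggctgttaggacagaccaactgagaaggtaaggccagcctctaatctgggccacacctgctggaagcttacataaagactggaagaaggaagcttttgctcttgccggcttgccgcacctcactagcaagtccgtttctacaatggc
The match in Apol7c began 174 bases before the gene start, and Apol7a has no match in its window. Searched on both strands, these letters occur in 13 of 32851 promoter windows (0.0396%) and in 1 of the 179 called genes with a window, and the search was made after the values were seen. Other motifs were searched as well. The interferon-stimulated response core (TTTC, any 2 bases and TTTC) also matched the Apol7c window, and occurs in 3.44% of windows and in 7 of the 179 genes. The octamer ATGCAAAT occurs in 1.74% of windows and in 2 of the 179, neither of them an Apol gene.

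Of 22 brush border enzymes, 2 fell (9.09%, against 0.67% of all genes called lower). Cndp1, a dipeptidase, was 7.57, 7.21, 7.38 and 7.63 in long-chain mice and 7.73 to 7.93 in short-chain mice, without overlap. Naalad2, a glutamate carboxypeptidase, was 3.35 to 3.90 in long-chain mice and 3.93 to 4.21 in short-chain mice. The abundant sucrase-isomaltase gene Sis differed by -0.14 and was not called. Cndp1 was below the fold limit after cyclic loess (-0.33) and without long-chain mouse 2 (-0.31) or 3 (-0.36) or short-chain mouse 1 (-0.37) or 3 (-0.35), and Naalad2 kept its call only without long-chain mouse 2 (other values -0.48 to -0.38). Of 30 genes of xenobiotic metabolism Cyp3a44 alone was called (-0.60 ± 0.21, SE), and without a single mouse it stayed called only for long-chain mouse 1 or short-chain mouse 4 (other values -0.63 to -0.49). Cyp3a11, a major member of the same family, differed by -0.60 with a larger SE of 0.29 and was not called. Amino acid transporters gave no call among 19 genes. Slc6a14, a transporter of neutral and basic amino acids, had the largest difference in that list, with 6.20, 7.82, 8.00 and 7.83 in long-chain mice and 7.39, 4.66, 5.82 and 7.35 in short-chain mice, and these ranges overlapped widely.

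In the innate immune lists single genes moved, where 0.67% of all genes were called lower. Gbp2, an interferon-induced GTPase, was 6.06, 5.82, 5.92 and 5.70 in long-chain mice and 6.28, 6.32, 6.80 and 6.06 in short-chain mice. It was the one called gene among 35 interferon-stimulated genes, of which 29 had a negative difference (median -0.18, or -0.10 without short-chain mouse 3), and the call, at p just under 0.01, was kept among the single mice left out only without long-chain mouse 1 or short-chain mouse 4 (other values -0.51 to -0.34). Reg1, a regenerating lectin, was 3.57 to 3.98 in long-chain mice and 3.87 to 4.42 in short-chain mice, and its call was kept only without long-chain mouse 3 or 4 or short-chain mouse 1 (other values -0.39 to -0.32). Tlr5, the flagellin receptor, was 5.55 to 6.06 in long-chain mice and 6.08 to 6.43 in short-chain mice, without overlap but below the call limit of p. C2, a complement protease named after its values were seen, was 4.99 to 5.39 in long-chain mice and 5.45 to 5.98 in short-chain mice, and fell by 0.58.

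Among the lowest genes outside these lists, Casq2, a calcium-binding protein of muscle, was 5.51 to 5.91 in long-chain mice and 6.06 to 6.39 in short-chain mice and kept its call in all 19 refits judged by the same p and fold. Nmb, the peptide neuromedin B, was 3.87, 3.61, 3.61 and 4.17 in long-chain mice and 4.24, 4.44, 4.56 and 4.38 in short-chain mice, and did so in the 18 that tested it. AB124611 (-0.80) was a further gene of this kind (18 refits), although short-chain mouse 2 (4.51) lay within the long-chain range of 4.10 to 4.84. Tmem182, Ceacam2, a carcinoembryonic antigen-related adhesion protein, Trpc1, a cation channel, Igfbp6, a binding protein of insulin-like growth factors, and BC023105 fell by 0.63 to 0.83. Each of these calls was lost without 1 or more single mice: Tmem182 without long-chain mouse 4 (-0.60), Ceacam2 without long-chain mouse 2 (-0.53) or 3 (-0.61) or short-chain mouse 3 (-0.60), and BC023105 without long-chain mouse 2 (-0.72) or 4 (-0.69) or short-chain mouse 3 (-0.55). Trpc1 was lost without long-chain mouse 1, 2 or 4 or short-chain mouse 1 or 4 (-0.68 to -0.40), and Igfbp6 without long-chain mouse 2 or 4 or short-chain mouse 2 or 3 (-0.62 to -0.41). The call of Gm5431 (-1.08 ± 0.31, SE) rests on values of 2.41 to 3.61 in long-chain mice and 3.93 to 4.71 in short-chain mice, and was lost without long-chain mouse 2 (-0.82). For Macrod2 (-0.75), an ADP-ribose hydrolase with 6 probe sets, the mean of the sets differed by -0.13 and was not called, and the call was lost without long-chain mouse 2 or 4 or short-chain mouse 1, 2 or 4 (-0.75 to -0.54).

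A further 3 lower genes were picked singly after their values were seen, with no list behind them. Glp1r, the receptor of the incretin GLP-1, was 4.69, 4.29, 4.83 and 4.31 in long-chain mice and 4.83, 4.99, 5.35 and 4.78 in short-chain mice. Galr2, a galanin receptor, was 3.74 to 4.31 in long-chain mice and 4.55 to 4.64 in short-chain mice. Lepr, the leptin receptor, was 5.41, 6.08, 5.35 and 5.43 in long-chain mice and 5.84 to 6.09 in short-chain mice, where long-chain mouse 2 lay at the short-chain level. None of 25 enteroendocrine genes was called.

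Cell division genes had small positive differences. Of 18 genes none was called, 17 had a positive difference and the median was 0.14, or 0.20 after cyclic loess. Ccna2, cyclin A, was 8.60, 8.55, 8.69 and 8.64 in long-chain mice, each above the 8.23 to 8.39 of the short-chain mice, with a difference of 0.31 below the fold limit. Stem cell, Paneth cell, goblet cell, tuft cell, circadian, unfolded protein, sterol synthesis and respiratory chain lists held no called gene, and their medians lay between -0.07 and 0.02.

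**Figure D4:**
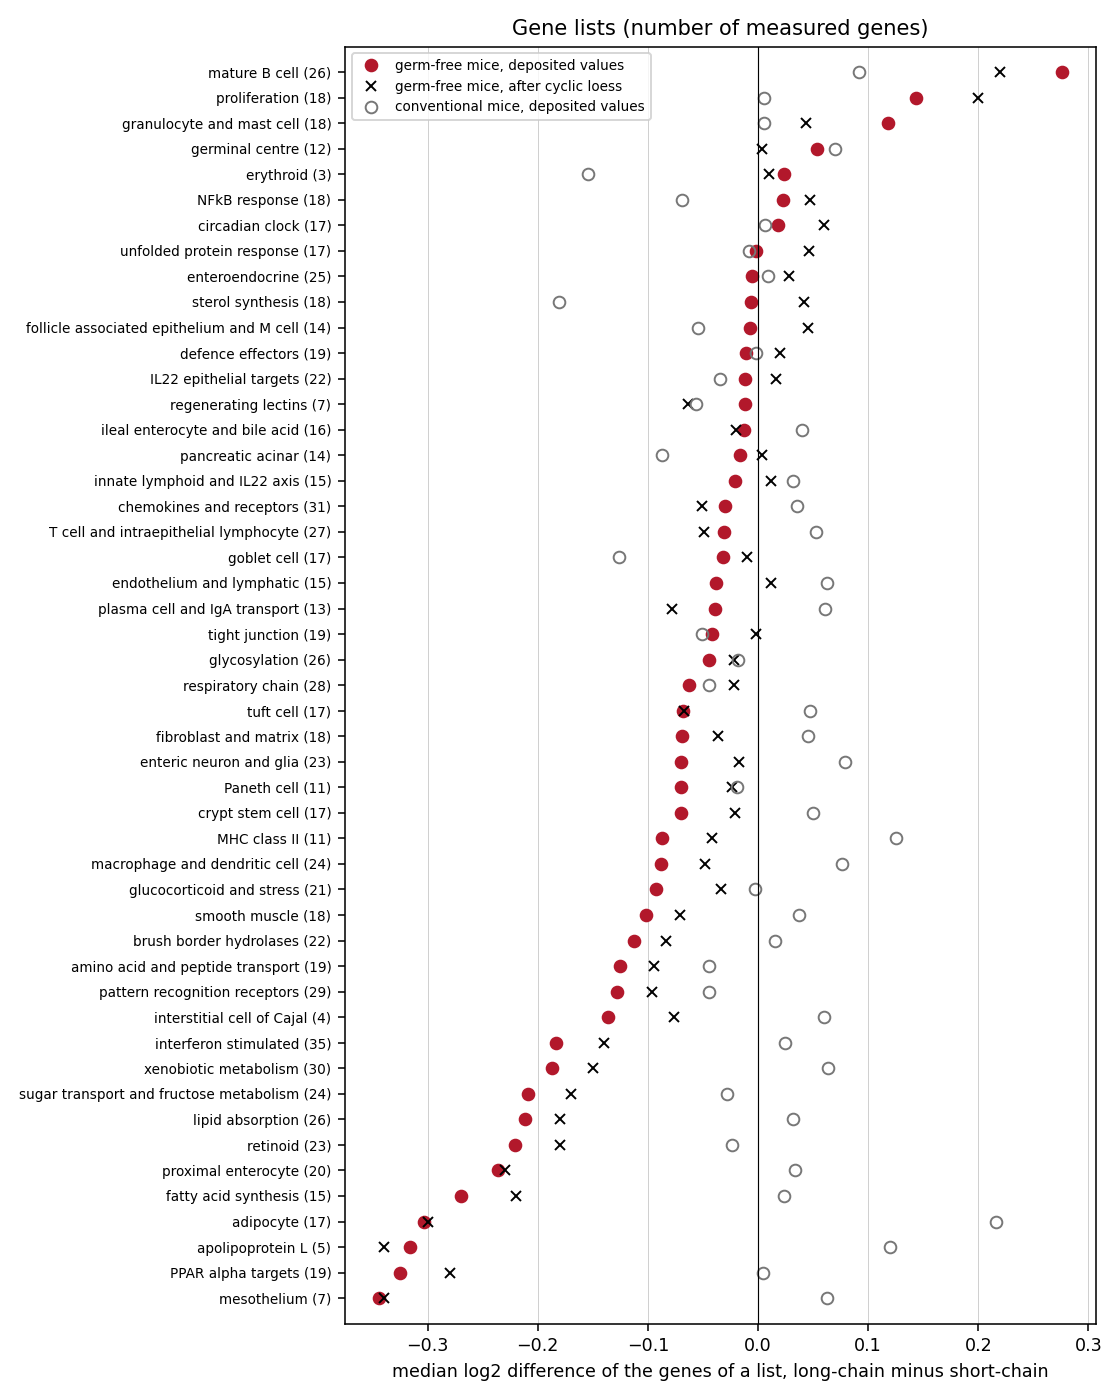
Median log2 difference (long-chain minus short-chain) of the measured genes of each list in germ-free mice with the deposited values (filled), in germ-free mice after cyclic loess (crosses) and in conventional mice (open circles), with the number of measured genes in brackets. Mature B cell genes lie at the upper end in germ-free mice (0.28, and 0.09 in conventional mice). Fatty acid oxidation (-0.33), fat absorption (-0.21) and vitamin A genes (-0.22) lie near the lower end, with conventional medians close to 0. Other lists lie there too, among them mesothelial (-0.34), apolipoprotein L (-0.32) and adipocyte genes (-0.30), with conventional medians of 0.06, 0.12 and 0.22.

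Of the genes that the study singled out, Ighd and Saa1 have no probe set of their own in the annotation used and were not analysed here, and 3 others were measured and not called. Fut2, a fucosyltransferase of the gut surface, averaged 4.95 ± 0.09 in long-chain mice and 5.01 ± 0.29 in short-chain mice, with a 95% interval of the difference from -0.50 to 0.37. Duox2, an oxidase of the epithelial surface, averaged 7.15 ± 0.16 in long-chain mice and 6.97 ± 0.20 in short-chain mice (interval -0.23 to 0.59). Retnlb, a bactericidal goblet cell protein, averaged 3.0 ± 0.23 in long-chain mice and 3.31 ± 0.09 in short-chain mice (interval -0.92 to 0.31; SD, n = 4 each). These intervals include 0 and also changes of more than 1.3-fold.

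Both comparisons with water share the water mice, and each shares its fructan mice with the comparison of the fructans. Long-chain and water mice differed in 161 genes (0.855%), of which 79 were higher (0.42%) and 82 lower (0.436%), short-chain and water mice in 109 (0.579%), of which 77 were higher (0.409%) and 32 lower (0.17%). Ms4a1 differed from water by 0.83 after long-chain and by -0.03 after short-chain β2→1-fructan, and Slc5a4b by -1.17 after long-chain and by -0.08 after short-chain β2→1-fructan. The water mean lay between the fructan means for 130 of the 139 higher and 103 of the 126 lower genes. Of the 139, 23 were called for long-chain against water, 7 for short-chain against water and 109 for neither. Of the 126, these counts were 23, 20 and 83. The count for long-chain against water was 287 without long-chain mouse 1 and 271 without water mouse 3, and that for short-chain against water 61 without short-chain mouse 3 and 263 without water mouse 3. The PPARα target list had a median of -0.15 for long-chain minus water and 0.13 for short-chain minus water.

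Conventional mice received the same doses of the 2 fructans for the same time and share no mouse with the germ-free comparison. They came from a commercial supplier, and irradiation and filtration are described for the solutions of germ-free mice only, so that host status, origin of the mice and preparation of the fructans cannot be told apart in a comparison of the hosts. There 40 genes were called (0.213%), 22 higher (0.117%) and 18 lower (0.0956%), and 92 without long-chain mouse 3, 64 without long-chain mouse 4, 82 without short-chain mouse 3 and 63 without short-chain mouse 4. None of the 265 genes called in germ-free mice (1.41% of all genes) was among the 40 (0.213%). At these shares unrelated lists would have few or no genes in common, so the lack of overlap carries little weight. Across all genes, which are not independent, the differences in the 2 kinds of host correlated at r = 0.03 (Spearman's rho = 0.05). The median difference in conventional mice was 0.03 over the 139 higher and -0.01 over the 126 lower genes. The B cell list had a median of 0.09 in conventional mice, the PPARα list 0.00, fat absorption 0.03 and the vitamin A list -0.02, with no called gene in any of these. Of the 26 B cell genes, 21 had a positive difference in conventional mice and 22 in germ-free mice.

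The test of the difference between hosts called 200 genes (1.06%; 78 with a higher difference in germ-free mice, 0.414%, and 122 with a lower one, 0.648%), of which 59 were among the 265, and none had an adjusted p under 0.05 in limma (smallest 0.436; 1343 genes, 7.14%, at an unadjusted p under 0.05). Without germ-free long-chain mouse 1 the count was 315. The test contains the germ-free difference that defined the 265 calls, so part of the overlap of 59 is built in. Apol7c, Nmb and BB014433 were picked for their large differences between hosts. Apol7c fell in germ-free mice (-0.87) and differed by 0.26 in conventional mice, a difference between hosts of -1.13 ± 0.30 (SE). Nmb differed by -0.59 in germ-free and by 0.24 in conventional mice (-0.83 ± 0.19 between hosts), and BB014433 by 0.67 in germ-free and by -0.17 in conventional mice (0.84 ± 0.18 between hosts). Ms4a1 differed by 0.27 in conventional mice.

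**Figure D5:**
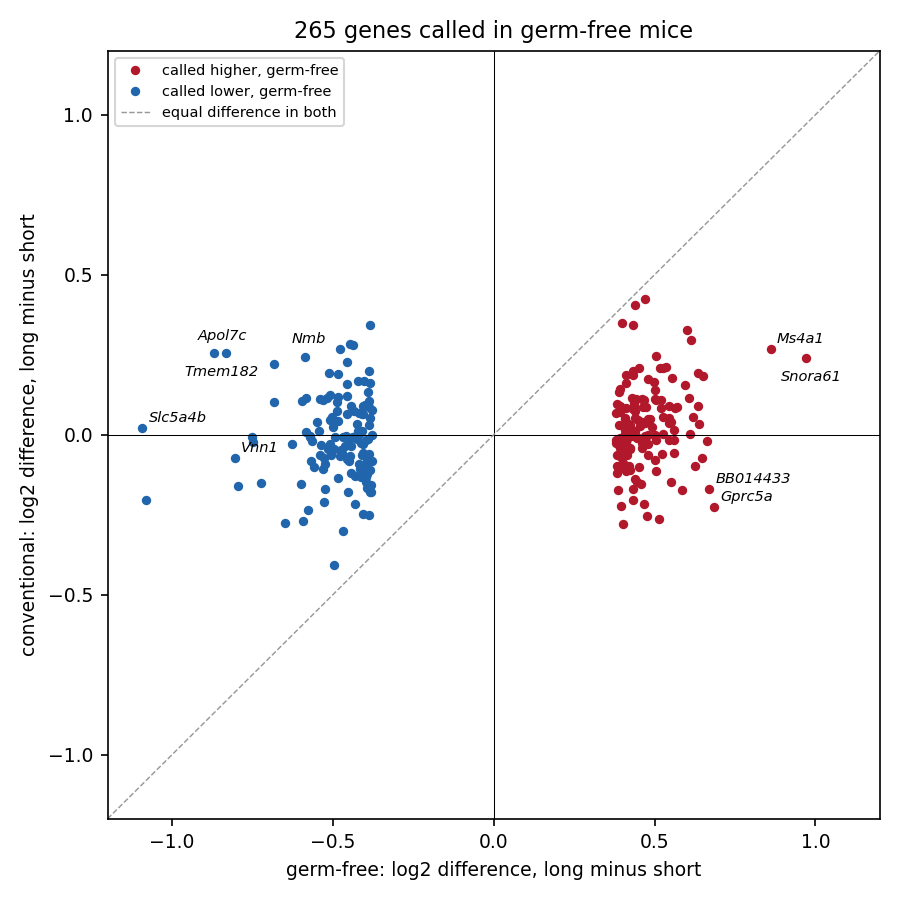
Log2 difference between long-chain and short-chain mice in germ-free mice (horizontal) and in conventional mice (vertical) for the 265 genes called in germ-free mice, red where higher and blue where lower. The gap around 0 on the horizontal axis comes from the call rule, and on the vertical axis the points scatter around 0, with a median of 0.03 for the higher and -0.01 for the lower genes.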

How the data were processed

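Total RNA (100 ng, integrity number above 8) of terminal ileum was hybridised to Affymetrix Mouse Gene 1.1 ST arrays, 1 array for each of 24 separate mice in 6 groups of 4. The authors normalized the arrays by RMA, and the deposited values are log2 expression per probe set. The probe set identifiers are those of the manufacturer, although the methods name a remapped chip definition. Of 35556 probe sets, 21218 had 1 gene symbol, 1881 several and 12457 none in the platform annotation. For 1386 genes with several sets, the set of highest mean was kept, leaving 18820 genes, of which 18790 matched RefSeq. Groups were compared in limma 3.58.1 (R 4.3.3) with a model of all 24 arrays in 6 groups, a variance trend on level and 18 residual degrees of freedom. No low values were filtered. Calls required p under 0.01 and a fold above 1.3, the thresholds used in the study, and Benjamini-Hochberg adjusted p are given over all genes. The number of arrays limits the precision. An exact permutation test of 4 against 4 mice cannot go below p = 0.029 (two-sided).

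Genes were named as the 15 highest and 15 lowest called genes, the called genes of each list and up to 4 of smallest p in each list described, the study's own genes and the 10 largest calls of the difference between hosts, with predicted, small RNA and receptor gene families named only among the 5 highest or lowest. Others were named outside this rule after their values were seen, and the text states this only for some of them. Among those without such a statement are Khk, G6pc, Slc5a1, Ppara, Fabp2, Apob, Mirlet7b, Mir335, Mir16-2 and Snora2b. The mice, the gene lists and this rule were chosen with earlier results of these data known. Alternatives were IBMT, a common prior variance, fits on 12 or 8 arrays, cyclic loess, genes above the median level, the mean of probe sets, array weights, a replicate block, a fold of 1.5, adjusted p, and each mouse left out. Quantile normalization and leaving out long-chain mice 3 and 4 together were added after the data were seen. The fits were tested on simulated data. Figures were drawn with matplotlib 3.10.9 (Python 3.11.15).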

Additional observations from a re-analysis of the deposited data

Results flagged for a closer look

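In 96 groups of 4 mice of the named called genes, 5 held 1 mouse far from the other 3, where chance gives about 1 in 20 groups. These were Gprc5a (9.02) and Cxcl1 (5.39) in germ-free long-chain mouse 3, Gsc2 (5.09) in long-chain mouse 2, BB014433 (2.99) in long-chain mouse 1 and AB124611 (4.51) in short-chain mouse 2.

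The difference between long-chain and short-chain mice was itself different between germ-free and conventional mice in 10 named genes, at an unadjusted p under 0.01 and with adjusted p of 0.555 to 0.677 in limma. The germ-free minus conventional difference was 0.84 for BB014433, -0.83 for Nmb, -1.09 for Tmem182 and -1.13 for Apol7c. It was -0.96 for Tifa, an adaptor of NF-κB signalling, which differed by -0.24 in germ-free and 0.72 in conventional mice. It was -0.94 for Scd1, a fatty acid desaturase (-0.30 in germ-free and 0.64 in conventional mice), and -1.07 for Hp, haptoglobin (-0.42 in germ-free and 0.65 in conventional mice). It was -0.82 for Slc6a20b, a transporter (-0.37 in germ-free and 0.45 in conventional mice), -0.81 for Prkar2b, a regulatory subunit of protein kinase A (-0.41 in germ-free and 0.40 in conventional mice), and -0.83 for Reg3a, a regenerating lectin (-0.43 in germ-free and 0.40 in conventional mice).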

How the results depend on the processing

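No called gene changed direction under any setting, and of 48 called genes named by rule, 7 kept their call in every refit that tested them at the same p and fold. Genes picked after their values were seen are not among the 48. The 265 calls (139 higher, 126 lower) numbered 35 (18 and 17) at a fold of 1.5 and 73 (17 and 56) among genes above the median level, which tests fewer genes, and 184 to 455 (109 to 243 higher, 75 to 212 lower) without each mouse in turn. Higher genes made up 52.5% of calls, and 44.8% after cyclic loess, 47.9% after quantile normalization and 23.3% above the median level. At an adjusted p under 0.05 all 5 comparisons gave 0 genes. At a fold of 1.5, long-chain against water gave 28, short-chain against water 15, conventional mice 9 and the difference between hosts 62. Above the median level these were 53, 33, 13 and 84. Without each mouse in turn they were 116 to 287, 61 to 263, 50 to 92 and 146 to 315. Long-chain against water gave 97 with 8 arrays. Fut2, not called, differed by -0.19 to 0.046 without each mouse in turn, the sign being positive without short-chain mouse 1, and the cause was not tested. With the replicate number as a block 269 genes were called (135 higher, 134 lower), 250 of them shared. Same-numbered long-chain and short-chain mice correlated at -0.09 to 0.08 in their deviations. A pairing by number was thus not seen, although so few mice cannot exclude it. Intensities of dim genes limit what these arrays resolve.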
